A study of Mus musculus with 12 samples.

Results

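The S100A calcium-binding proteins described here are encoded by 7 mouse genes, S100a1, S100a4, S100a6, S100a10, S100a11, S100a13 and S100a16, out of 18193 genes that the platform annotation names through a probe set of their own. The 7 symbols were listed by hand and selected on results of the same arrays already known, among them the low log2 signal of S100a4 in control day8 relative to control day0. Comparisons of the day 8 groups with control day0 are therefore given for these genes as a description, and tests are read only between the day 8 groups. Of the 7 genes, 6 had at least 1 probe set annotated to that gene alone (10 probe sets in all) and passed the filter on low values. The remaining gene, S100a11, is represented by a single probe set that is also annotated to 2 other entries, and is described separately.

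RNA abundance was measured on 12 Affymetrix arrays in 4 groups of 3. Control day0 held mouse ES cells of the D3 line with no agent, while control day8 held D3 cells differentiated through embryoid bodies with no agent. The remaining groups held differentiated D3 cells with an agent, BPA in the group BPA day8 and NP in the group NP day8, for which the labels give no full name, dose or start of exposure. Per the labels, the ES cells were grown on mouse embryonic fibroblasts treated with MMC, so RNA of feeder cells could be part of the day 0 samples, and no label says whether feeders remained at day 8. The labels do not say whether the 3 arrays of a group came from separate cultures, and p-values then measure only the spread between these arrays.

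S100 proteins are small calcium sensors with a pair of EF-hands, the helix-loop-helix units that bind calcium, and most work as dimers that expose a binding surface when calcium rises. Their partners include annexins, which bind membranes, non-muscle myosin, the scaffold AHNAK and the ubiquitin ligase adaptor CACYBP. S100A4 and S100A6 are well known from fibroblasts and other mesenchymal cells, S100A1 from heart muscle, and S100A10 from its complex with annexin A2.

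All 7 genes lie on mouse chromosome 3, in the cluster that holds most of the family. S100a4 and S100a6 are separated by S100a5 alone, S100a11 and S100a10 are neighbours, and S100a1 and S100a13 are neighbours whose listed starts lie 104 bases apart on opposite strands. The stretches upstream of S100a4 and S100a6 are shown because these 2 genes were the members with the lowest day 8 signal relative to day 0. Both are the 250 bases before the gene's listed start, on the plus strand, from RefSeq on GRCm38.p6, at chr3:90603520-90603769 and chr3:90612644-90612893. Capitals mark the letters TATAAA, the core of a TATA box.
S100a4: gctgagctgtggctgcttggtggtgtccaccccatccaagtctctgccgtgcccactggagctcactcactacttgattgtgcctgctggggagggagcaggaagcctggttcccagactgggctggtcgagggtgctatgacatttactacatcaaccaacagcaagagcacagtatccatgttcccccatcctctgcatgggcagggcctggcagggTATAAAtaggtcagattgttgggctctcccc
S100a6: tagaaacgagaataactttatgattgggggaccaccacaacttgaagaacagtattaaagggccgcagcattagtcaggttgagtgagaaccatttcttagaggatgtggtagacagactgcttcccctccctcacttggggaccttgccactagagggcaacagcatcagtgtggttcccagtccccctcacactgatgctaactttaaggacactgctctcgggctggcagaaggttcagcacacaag
The S100a4 stretch holds 1 match to TATAAA and the S100a6 stretch holds 0, while 13.6% of 32817 RefSeq promoter windows of 300 bases hold it on either strand. Neither window of these 2 genes holds TGACTCA, the letters of an AP-1 site, which 5.2% of all windows hold, or GGGCGG, a GC box, which 35.6% hold. The windows of S100a1 and S100a13 hold none of the 3 motifs. S100a11 has 2 matches to TGACTCA and 3 to GGGCGG in its window, and S100a16 has 1 match to GGGCGG in 1 of its windows. The motifs do not overlap in letters, and a match is a description of these windows only.

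Signals are MAS5 values on the log2 scale, so a difference of 1 is a doubling of the signal. The background level used below is the highest value of the 3 control probe sets for TrpnX, a bacterial transcript, over the 12 arrays, which was log2 3.41 or a signal of 10.6. Where a group mean lay under it, values under it were set to it and the difference is given as a bound. Probe sets of different genes have different affinities, so levels are compared only within a probe set. As a check of the label, the signal of 10 pluripotency markers was summed on each array. The sum was 29315 to 29994 in control day0 and 3495 to 7160 in control day8. It was 20943.5 to 21887.4 in BPA day8 and 17038.5 to 22791.6 in NP day8, between the 2 control groups. In the limma fit described below, all 10 markers were called higher than control day8 with each agent (median log2 difference 2.29 with BPA and 2.10 with NP). Against control day0, 5 of the 10 were called lower with each agent. The day 8 groups with an agent therefore did not lose these markers to the extent that control day8 did.

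S100a4, a calcium sensor that binds non-muscle myosin and is widely used to mark fibroblast-like cells, was high on the 3 control day0 arrays and near background on all 9 day 8 arrays. Its log2 signal was 10.27, 10.55 and 9.81 on the day 0 arrays. It was 2.87, 3.81 and 2.60 in control day8, 2.65, 2.85 and 3.92 in BPA day8, and 3.80, 4.32 and 0.91 in NP day8. The day 0 and day 8 values were far apart, and 5 of the 9 day 8 values lay under the background level. The mean was 10.21 ± 0.37 (SD, n = 3) at day 0 and 3.09 ± 0.64 in control day8, a difference of at least 6.67 on the log2 scale, or at least 102-fold lower. The corresponding bounds were 99.2-fold in BPA day8 and 82.5-fold in NP day8. In bulk RNA, fewer cells of a type that carries S100a4 and less S100a4 RNA per cell cannot be told apart.

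S100a6, the calcium sensor also called calcyclin, had its highest signals on the day 0 arrays as well, but stayed far above background at day 8. Its log2 signal was 11.19, 11.29 and 11.33 in control day0 and 8.40, 8.14 and 9.03 in control day8. It was 8.73, 8.68 and 9.33 in BPA day8 and 8.58, 8.82 and 8.19 in NP day8. The 3 day 0 arrays lay close together and above all 9 day 8 arrays, while the 3 day 8 groups overlapped. Control day8 was lower than control day0 by 2.75 ± 0.26 (SE) on the log2 scale, a 6.71-fold difference in signal. BPA day8 was 5.13-fold and NP day8 6.67-fold below control day0.

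S100a1, a sensor that binds the ryanodine receptor in heart muscle, was the member with the opposite pattern. The log2 signal of S100a1 was 3.87, 4.60 and 4.48 in control day0, just above background. It was 7.81, 7.17 and 8.32 in control day8, 7.55, 7.79 and 7.89 in BPA day8 and 7.74, 8.38 and 8.30 in NP day8. Every day 8 array was above every day 0 array, and the 3 day 8 groups overlapped. Control day8 was higher than control day0 by 3.45 ± 0.31 (SE), a 10.9-fold difference, and the factor was 10.8 in BPA day8 and 14.2 in NP day8. A second probe set of S100a1 gave -0.89, 0.23 and 3.06 at day 0, all under background, and 5.74 to 6.78 on the 9 day 8 arrays. Both S100a1 probe sets therefore had the same order of day 0 and day 8.

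S100a13, which starts 104 bases from S100a1 and takes part in the release of FGF1 from cells, did not show that separation of day 0 from day 8. It had log2 signals of 6.25, 6.22 and 6.72 in control day0 and 6.06, 5.75 and 6.92 in control day8. It was 7.25, 6.72 and 6.70 in BPA day8 and 7.09, 7.35 and 6.29 in NP day8. The 4 groups overlapped, and control day8 minus control day0 was -0.15 ± 0.35 (SE), beside 3.45 for S100a1. These values are a description only.

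**Figure D1:**
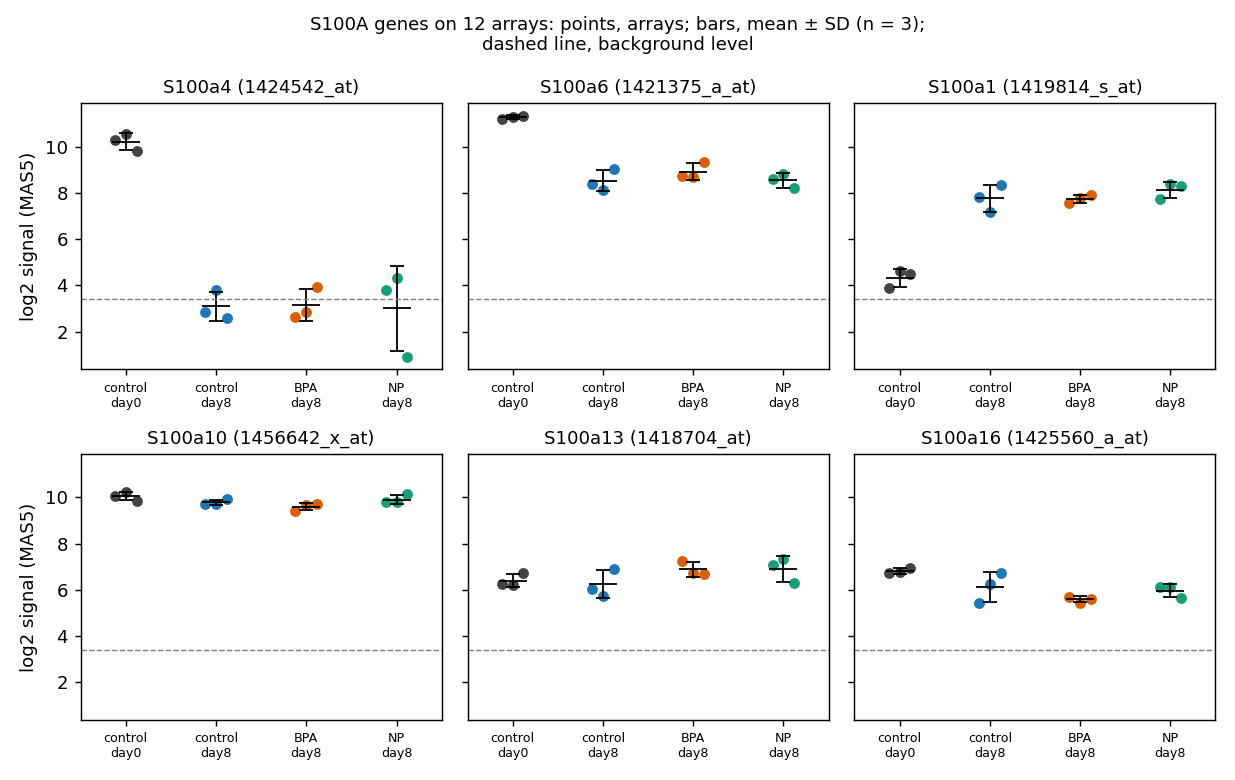
Log2 MAS5 signal (vertical axis) of the 6 S100A genes with a probe set of their own, by group (horizontal axis). Points are arrays, bars are the mean ± SD (n = 3), and the dashed line is the background level of log2 3.41. S100a4 and S100a6 are highest at control day0, S100a1 is lowest there, and S100a10 lies between 9.42 and 10.22 on all 12 arrays.

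S100a10, the light chain that joins 2 annexin A2 molecules and binds no calcium itself, was high and nearly level over the 4 groups. Its log2 signals were 10.05, 10.22 and 9.86 in control day0 and 9.73, 9.73 and 9.92 in control day8. It was 9.42, 9.67 and 9.71 in BPA day8 and 9.78, 9.79 and 10.13 in NP day8. Its lowest group mean, BPA day8, was 0.44 ± 0.14 (SE) below control day0. The group means in order were control day0 at 10.04, NP day8 at 9.90, control day8 at 9.79 and BPA day8 at 9.60. No pair of neighbouring day 8 groups in that order passed the test.

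S100a16, a broadly expressed family member, had its highest mean at day 0. Its log2 signal was 6.71, 6.79 and 6.96 in control day0 and 5.44, 6.25 and 6.72 in control day8. It was 5.71, 5.45 and 5.63 in BPA day8 and 6.13, 6.12 and 5.64 in NP day8. Control day8 was the most spread of the groups and reached into the day 0 range, whereas all BPA day8 and NP day8 arrays lay below day 0. The difference from control day0 was -0.68 ± 0.28 (SE) in control day8, -1.22 in BPA day8 and -0.86 in NP day8. A second probe set of the gene gave -0.82, -1.13 and -0.85 for the same comparisons.

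As a description of these counts, control day8 was past the threshold of the fit across all genes (limma, adjusted p of 0.05) against control day0 for 1 of 6 members in the higher direction and 2 of 6 in the lower. Over 13067 genes, 28.3% were called higher and 20.5% lower in that comparison. For BPA day8 against control day0, 1 member was higher and 4 lower, beside 21.7% and 11.9% of all genes. For NP day8 against control day0, 1 was higher and 3 lower, beside 20.2% and 11.9%. The 3 comparisons share the control day0 arrays, so they do not repeat one another independently. The lower calls beyond S100a4 and S100a6 were S100a16 and S100a10 with BPA and S100a16 with NP. These counts moved with the settings for S100a10 and S100a16, which lay close to the threshold. S100a16 in control day8 was past it in 8 of 28 alternatives, S100a16 with NP was no longer past it in 15 and with BPA in 1, and S100a10 with BPA in 11. Among these, 10 single arrays left out moved S100a16 with NP and 5 moved S100a10 with BPA. Nothing is read from the counts against control day0.

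Between the day 8 groups, none of the 6 members passed the test with either agent. For BPA day8 against control day8, limma called 0 of 6 members in either direction and 0 at an unadjusted p under 0.05, beside 12% of all genes called higher and 10.2% lower. For NP day8 against control day8, 0 of 6 were called and 0 at an unadjusted p under 0.05, beside 7.90% higher and 6.28% lower. For NP day8 against BPA day8, 0 of 6 were called and 0 at an unadjusted p under 0.05, while of all genes 0.00765% were higher (1 gene) and 0.00% lower. These percentages are of calls after adjustment. At an unadjusted p under 0.05 by limma, 4651 of 13067 genes differed for BPA day8 against control day8 and 3741 for NP day8 against control day8. For NP day8 against BPA day8 there were 1095, of which 592 were lower.

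The intervals show what sizes of difference these arrays leave possible. With BPA, S100a6 was 0.39 higher than in control day8 (95% interval -0.19 to 0.97, adjusted p = 0.324 by limma) and S100a1 was -0.02 apart (-0.71 to 0.67). With NP, S100a6 was 0.01 apart (-0.57 to 0.59) and S100a1 0.37 higher (-0.31 to 1.06). S100a4 had the widest interval, -1.72 to 1.81 with BPA and -1.84 to 1.68 with NP, and most of its day 8 values were at background.

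S100a13 had the largest difference from control day8 among the members with each agent, 0.65 with BPA (95% interval -0.14 to 1.43, adjusted p = 0.224 by limma) and 0.67 with NP (-0.12 to 1.45, adjusted p = 0.245). Its values overlapped with control day8 through control day8 replicate 3, at 6.92. S100a16 was 0.54 lower with BPA (-1.17 to 0.09, adjusted p = 0.204), and the call appeared when control day8 replicate 1, its lowest array, was left out (difference -0.89, adjusted p = 0.0233). With NP, S100a16 differed from control day8 by -0.17 (-0.80 to 0.46).

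S100a10 was 0.19 lower in BPA day8 than in control day8 (95% interval -0.51 to 0.12, adjusted p = 0.370 by limma), and S100a10 was the 1 member of 6 whose arrays did not overlap between these groups, as those of 41.6% of all genes did not. NP day8 was 0.30 above BPA day8 (-0.02 to 0.62, adjusted p = 0.610), again without overlap, as for 17% of all genes in that comparison. The difference depends on the probe set. A second probe set of S100a10, whose mean over the 12 arrays was 9.83 as well, gave 10.07, 9.77 and 10.14 in control day8 and 9.33, 9.79 and 9.39 in BPA day8. There BPA day8 was 0.49 lower (adjusted p = 0.0529) and the groups overlapped through BPA day8 replicate 2. The name of the first of these probe sets ends in _x_at, the maker's mark for probes that may also bind other transcripts. The second S100a16 probe set has the same ending. The main S100a1 probe set ends in _s_at, a mark for probes shared by several transcripts. The third probe set of the gene was near background, between 1.45 and 4.40.

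**Figure D2:**
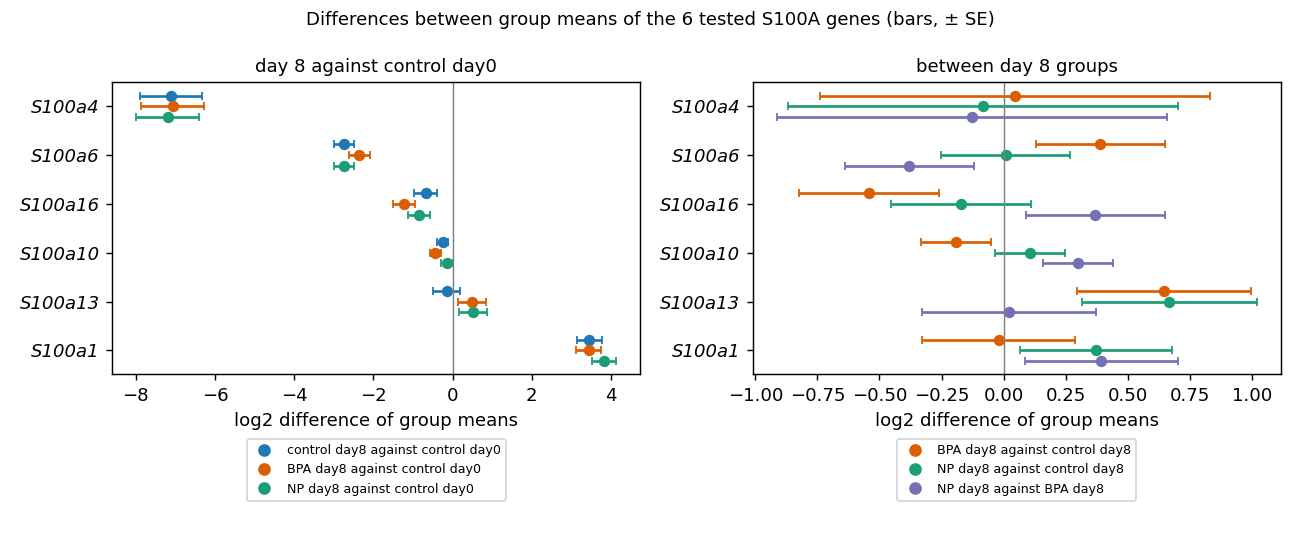
Differences between group means on the log2 scale (horizontal axis, bars ± SE from the fit) for the 6 S100A genes, with the day 8 groups against control day0 on the left and the day 8 groups against each other on the right. The scales differ: the left panel runs from S100a4 to S100a1 over the whole range, and the right panel covers differences between -0.54 and 0.67, none of which passed the test. The S100a4 points use the measured values, of which the day 8 ones are at background.

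The probe set listed for S100a11, a sensor that binds annexin A1, is also annotated to Gm12854 and S100a11-ps, so its signal cannot be given to S100a11 alone. Its log2 signal was 9.64, 9.73 and 9.62 in control day0 and 9.52, 9.39 and 9.72 in control day8. It was 9.39, 9.44 and 9.57 in BPA day8 and 9.01, 8.98 and 8.72 in NP day8. The 3 NP day8 arrays lay below the other 9 arrays. In the fit with this probe set as an added feature (13068 features), NP day8 was lower than control day8 by 0.64 ± 0.12 (SE; adjusted p = 0.00857 by limma), a 1.56-fold difference. BPA day8 differed from control day8 by -0.08 (adjusted p = 0.680), and NP day8 from BPA day8 by -0.56 (adjusted p = 0.299), so the difference between the agents did not pass the test. The fall with NP was called in 25 of 27 alternatives and was lost when only changes beyond 1.5-fold were tested and when only the compared groups were fitted.

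**Figure D3:**
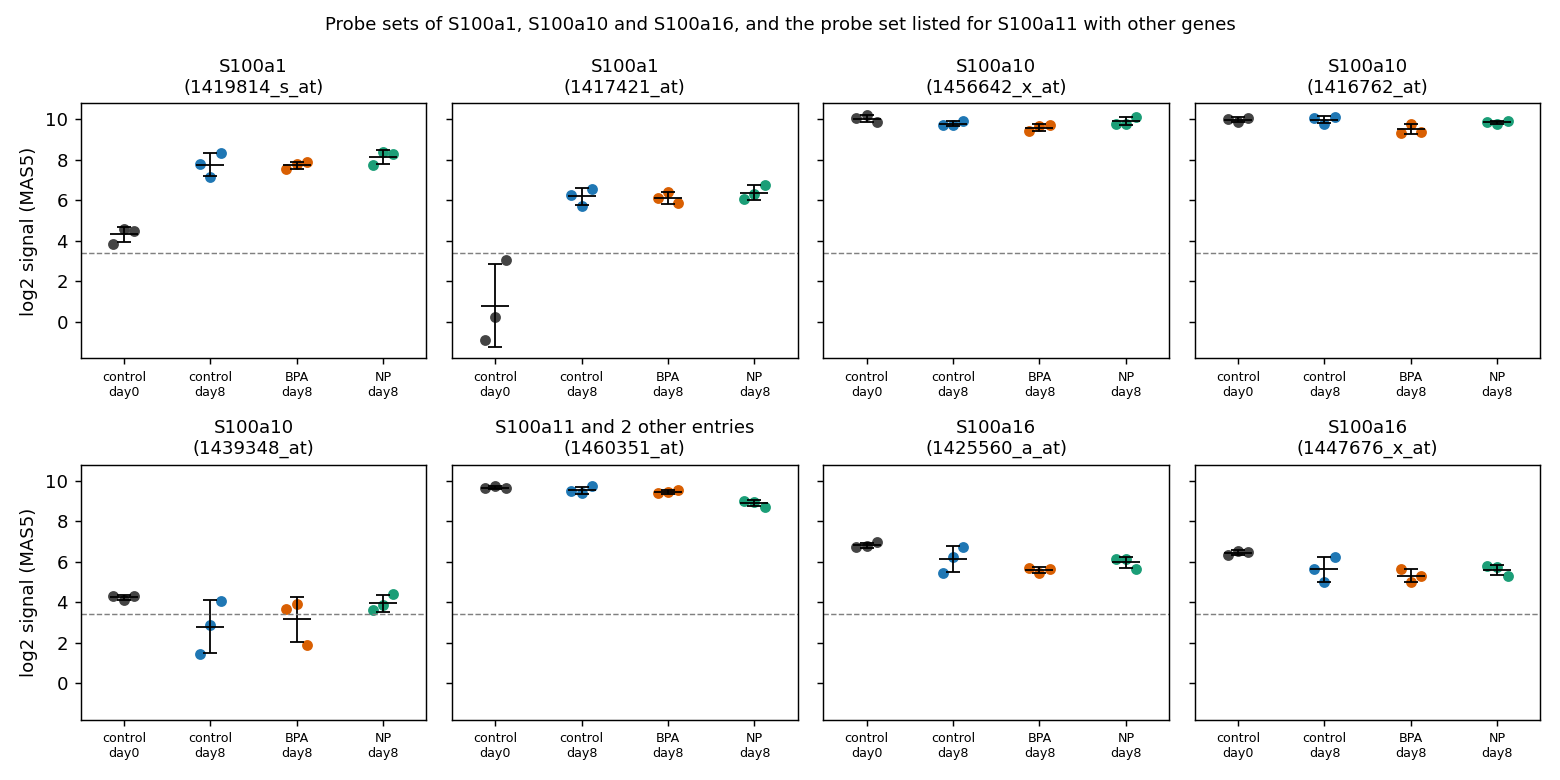
Log2 MAS5 signal (vertical axis) by group (horizontal axis) for each probe set of S100a1, S100a10 and S100a16 and for the probe set shared by S100a11 and 2 other entries. Points are arrays, bars the mean ± SD (n = 3), and the dashed line the background level. Both S100a1 probe sets are lowest at day 0. In the first S100a10 probe set the BPA day8 arrays lie below the control day8 arrays, and in the second they overlap. The shared S100a11 probe set is lowest in NP day8, at 8.72 to 9.01.

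Among the members, S100a4 and S100a6 followed each other over the 12 arrays (Pearson r = 0.95), and S100a1 ran against both (r = -0.95 with S100a4 and -0.92 with S100a6). Most of this is the step between day 0 and day 8, which the 12 arrays share. With each group's mean removed, r was 0.39 for S100a4 with S100a6 and 0.60 for S100a1 with S100a6. The tested genes closest to S100a4 were Osmr, the receptor of oncostatin M (r = 0.98), Tfb2m (0.96) and Thbs1, the matrix protein thrombospondin 1 (0.96). For S100a6 they were E2f8 (0.98), Osmr (0.98) and Emp1 (0.97). Osmr had a mean log2 signal of 7.73 in control day0, 3.98 in control day8, 4.43 with BPA and 4.06 with NP.

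The genes closest to S100a1 were Ctsh, the protease cathepsin H (r = 0.99), Klb, the co-receptor beta-klotho (0.99), and Lrpap1 (0.99). S100a10 was closest to Myrf (0.94), S100a13 to Rimkla (0.87) and S100a16 to Pdrg1 (0.92). Each was the highest of 13066 correlations over 12 arrays and is a description of these arrays only.

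Because day 0 cells were grown on feeders, 27 markers of fibroblasts and feeders were set beside S100a4 and S100a6; 26 have a probe set of their own and 25 were tested. Their summed signal was 18550 to 22512 in control day0, 20414 to 24433 in control day8, 8267 to 8454 in BPA day8 and 9030 to 10672 in NP day8. Bright markers weigh most in that sum, such as Vim (mean log2 11.95 in control day0 and 11.96 in control day8) and Fn1 (11.82 and 11.45). The sum is therefore no measure of feeder RNA. The values of S100a4 and of S100a6 overlapped between the 3 day 8 groups. From control day0 to control day8, 7 of the 25 markers rose and 12 fell, beside 28.3% and 20.5% of all genes. Their median change was -0.73, beside 0.12 over all genes. Against control day8, 0 rose and 19 fell with BPA (median -1.67), and 0 rose and 17 fell with NP (median -2.01).

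The markers were not of one kind. Thy1, a surface marker of fibroblasts, was 8.06, 8.51 and 7.98 in control day0 and 3.11, 1.73 and 4.06 in control day8, lower by at least 4.56 on the log2 scale. Mgp, matrix Gla protein, was 9.20, 9.43 and 9.37 in control day0 and 3.87, 4.18 and 4.30 in control day8. With the agents Mgp lay above its control day8 arrays, at 5.49, 5.42 and 5.24 in BPA day8 and 4.31, 4.66 and 6.57 in NP day8. Neither difference passed the test (adjusted p = 0.0843 and 0.173 by limma). Ccl2, a chemokine, was 8.61, 8.76 and 7.82 in control day0 and 3.17, 4.23 and 3.47 in control day8. It was lower by 4.78, or by 4.70 with values under background set to it. Like S100a4, these 3 markers and Mmp3, a matrix protease (at least 3.53 lower), had a high signal at day 0 and a lower one at day 8. Unlike S100a4, Mgp stayed above background on every day 8 array.

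Postn, the matrix protein periostin, ran otherwise, with 8.58, 8.81 and 8.31 in control day0, 11.44, 10.75 and 11.05 in control day8, 5.85, 5.84 and 5.96 in BPA day8 and 6.77, 5.54 and 5.48 in NP day8. Lum, the proteoglycan lumican, and Pdgfra, a growth factor receptor of mesenchyme, rose from control day0 to control day8 by 2.94 and 3.38. Col3a1, a fibrillar collagen, fell with both agents, with log2 changes of -4.64 for BPA and -4.96 for NP against control day8. Of the 12 markers lower at day 8, 8 were lower again with BPA and 6 with NP. Of the 7 higher at day 8, 6 were lower with each agent. Of all genes, 10.2% were lower with BPA and 6.28% with NP. The part of feeder RNA in the day 0 signal of S100a4 and S100a6 was not tested.

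**Figure D4:**
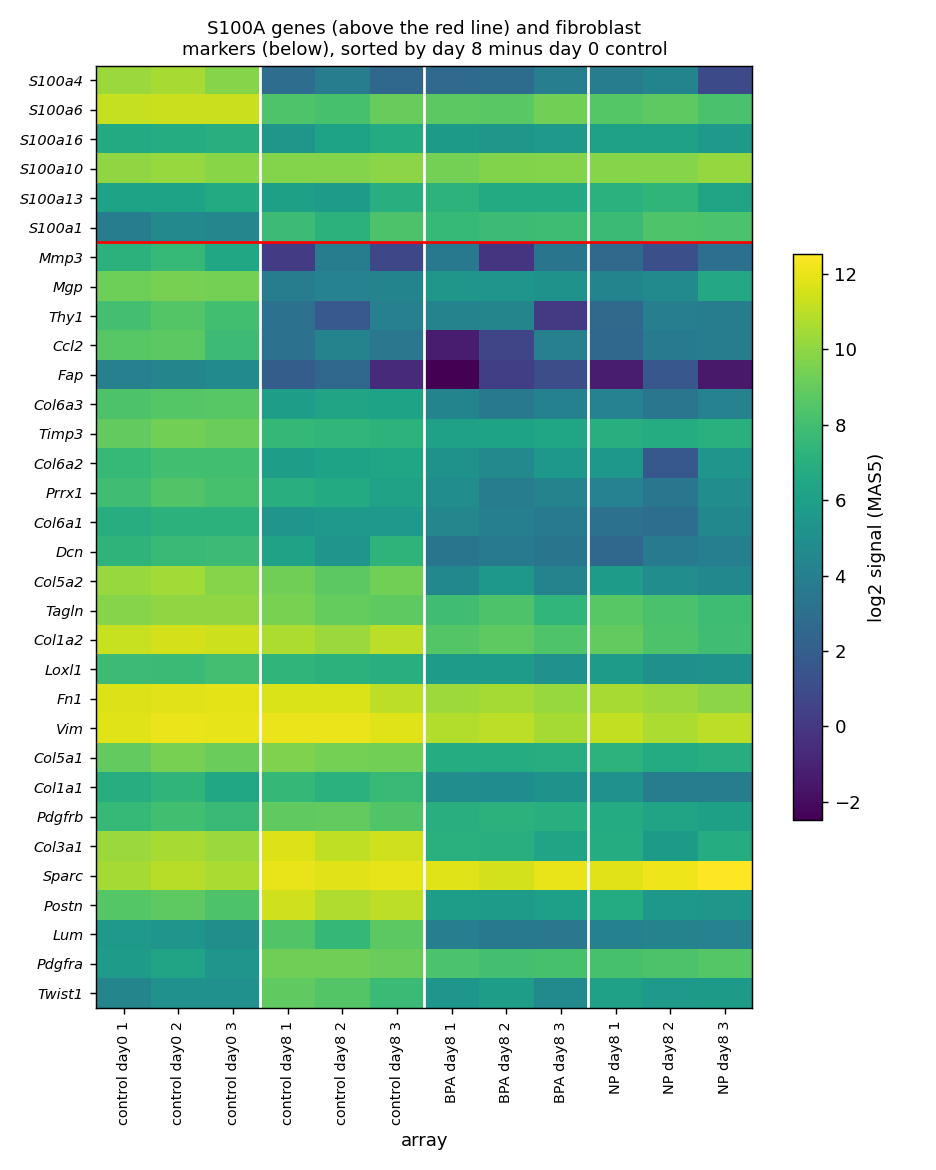
Log2 MAS5 signal (colour scale) on each of the 12 arrays (columns) for the 6 S100A genes above the red line and 26 fibroblast and feeder markers below it, each block ordered by the control day8 minus control day0 difference. Mmp3, Mgp, Thy1, Ccl2 and S100a4 are high at day 0 and lower on the day 8 arrays, where Mgp stays above background. Postn, Lum and Col3a1 are highest in control day8 and low with either agent.

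Markers of some tissues that arise during differentiation are given beside S100a1. The 12 cardiac muscle markers had a summed signal of 177.4 to 199.8 in control day0, 3331 to 5607 in control day8, 289 to 625 in BPA day8 and 286 to 1931 in NP day8. Of the 11 tested, 9 rose from control day0 to control day8, beside 28.3% of all genes. Against control day8, 8 fell with BPA and 7 with NP, beside 10.2% and 6.28% of all genes. With 1 array left out in turn, 5 to 8 fell with BPA and 1 to 7 with NP. The S100a1 values overlapped between the day 8 groups. The 12 visceral endoderm markers had a summed signal of 195 to 222 in control day0, 8541 to 16479 in control day8, 8277 to 11445 in BPA day8 and 13644 to 15035 in NP day8. All 12 of these rose from control day0 to control day8, beside 28.3% of all genes. Against control day8, 1 of 12 fell with each agent, beside 10.2% of all genes with BPA and 6.28% with NP. The 10 markers of simple epithelium and keratinocytes had a summed signal of 3849 to 4417 in control day0 and 14162 to 17074 in control day8. Their sum was 14849 to 18723 in BPA day8 and 11507 to 17060 in NP day8. The part of any of these tissues in the S100a1 signal was not tested.

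Of 10 further S100 family genes, 8 were on the array with a probe set of their own and 3 were tested. S100g, the vitamin D dependent calcium carrier calbindin-D9k, was under background on all 3 control day0 arrays and at 9.15 ± 1.04 (SD, n = 3) in control day8, higher by at least 5.75. It was 9.12 ± 1.10 in BPA day8 and 9.99 ± 0.52 in NP day8, so that, like S100a1, it overlapped between the day 8 groups. S100a5, the gene between S100a4 and S100a6, was near background throughout, at 3.49 ± 0.50 in control day0 and 2.88 ± 1.68 in control day8. The inflammatory members S100a8 and S100a9 were not tested, and their highest value on any array was log2 3.41 and 2.62.

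Annexins, the membrane-binding partners of S100 proteins, moved in both directions. From control day0 to control day8, 3 of 8 tested rose and 2 fell (median 0.52), beside 28.3% and 20.5% of all genes. Anxa1, a partner of S100A11, fell from 10.75 to 8.96, by 1.79 (adjusted p = 3.283e-04 by limma), and Anxa8 fell by at least 3.06. Anxa4 rose by 1.10 and Anxa5 by 0.61. Anxa2, the partner of S100A10, rose by 0.61 (adjusted p = 0.0141), but with the mean of its probe sets the difference was -0.34, and the call was lost without control day0 replicate 1 (adjusted p = 0.0533). While S100a10 stayed between 9.42 and 10.22, Anxa2 did not pass the test with BPA (-0.29, adjusted p = 0.260) or NP (-0.39, adjusted p = 0.166). Against control day8, 2 annexins rose and 1 fell with BPA, and 1 rose and 3 fell with NP; Anxa5 fell with both, by 0.63 and 0.55. With 1 array left out in turn, the counts ran from 0 to 3 higher and 1 to 2 lower with BPA, and from 0 to 2 higher and 0 to 3 lower with NP. The 1 annexin higher with NP was Anxa8, from a control day8 mean under background; the call was lost when any 1 of 10 arrays was left out, all but control day8 replicates 1 and 3 (adjusted p = 0.0518 to 0.124). The Anxa8 call with BPA was lost without BPA day8 replicate 1 or 2 (adjusted p = 0.0767 and 0.0774). The Anxa5 call with NP was lost without control day8 replicate 1 or 3 or NP day8 replicate 2 or 3 (adjusted p = 0.0657 to 0.0926).

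Of 27 other partners and receptors of S100 proteins, 21 were tested. From control day0 to control day8, 8 rose and 7 fell, beside 28.3% and 20.5% of all genes. Myh10, a non-muscle myosin heavy chain, rose by 1.66 at day 8 and fell against control day8 by 1.05 with BPA and 1.07 with NP (adjusted p = 0.00517 and 0.00796 by limma). Myh9, the myosin best known as the partner of S100A4, rose by 0.34 at day 8, a call lost without control day0 replicate 3 or control day8 replicate 2 or 3 (adjusted p = 0.051 to 0.0703). Cacybp, the S100A6-binding adaptor, fell by 1.06 at day 8 and was higher than control day8 by 0.60 with BPA and 0.53 with NP (adjusted p = 0.00432 and 0.0121). S100a6 itself, over the same 3 steps, was 2.75 lower, 0.39 higher and 0.01 higher.

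Ahnak, the scaffold bound by S100A10 and annexin A2, was lower than control day8 by 1.03 with BPA (adjusted p = 0.0459 by limma) and 1.48 with NP (adjusted p = 0.0169). The Ahnak call with BPA was lost when any 1 of 9 arrays was left out, all but control day8 replicate 3, BPA day8 replicate 2 and NP day8 replicate 3 (adjusted p = 0.0541 to 0.137). The call with NP was lost without control day8 replicate 1 or 2 or NP day8 replicate 3 (adjusted p = 0.0527 to 0.065). Fgf1, whose release involves S100A13, fell at day 8 by at least 1.12 from a log2 signal of 4.52, close to background. Ager, the receptor RAGE, was near background and passed the test in none of the 6 comparisons. Against control day8, 6 of the 21 rose and 4 fell with BPA, and 2 rose and 4 fell with NP. With 1 array left out in turn, 2 to 5 rose and 2 to 4 fell with BPA, the fewest risers without control day8 replicate 1, and 1 to 3 rose and 1 to 4 fell with NP, the fewest falls without control day8 replicate 1 or 2 or NP day8 replicate 3.

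Of 25 calmodulins and other EF-hand sensors, 19 were tested. From control day0 to control day8, 8 rose and 6 fell (median 0.40), beside 28.3% and 20.5% of all genes. Rcn3, a calcium-binding protein of the endoplasmic reticulum, rose by 1.30 at day 8 and fell against control day8 by 1.27 with BPA and 0.93 with NP. Calml4, a calmodulin-like protein, fell by at least 2.93 at day 8. Gca, grancalcin, was higher than control day8 by 1.84 with BPA and 1.34 with NP (adjusted p = 9.871e-04 and 0.00738 by limma). With BPA 4 of the 19 rose and 5 fell, and with NP 4 rose and 3 fell. With 1 array left out in turn, 3 to 5 rose and 3 to 5 fell with BPA, and 3 to 4 rose and 2 to 4 fell with NP. The 3 falls with BPA were reached without control day8 replicate 1 or 2 or any 1 of the BPA day8 arrays. Several EF-hand sensors and 0 of the 6 S100A genes passed the test against control day8. Of all genes, 22.2% were called with BPA and 14.2% with NP, so for a set of 6 genes 0 calls is near these shares. The contrast between the 2 sets of genes was not tested.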

How the data were processed

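Per the submitters' processing notes, the authors made the deposited values, log2 signals, with MAS5; its version is not given in the sources used here. They were analysed with no further scaling. The platform annotation gives 1 gene for 34945 probe sets, several for 932 and none for 9160, with 64 control probe sets apart. Probe sets in the top 60% by mean were kept (27023), and the brightest of each gene stood for it (13067 genes). A mean per group was fitted over the 12 arrays in limma 3.58.1 (R 4.3.3), which gave 1.57 prior and 8 residual degrees of freedom. Tests were 2-sided at 0.05 after Benjamini-Hochberg adjustment over all genes. The members and lists were chosen with earlier results of these data known.

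Named were the 7 members, Anxa1, Anxa2, Anxa11, Ahnak, Cacybp, Myh9, Fgf1, Ager, S100g and Thy1, up to 3 genes per list, comparison and direction with the largest called change and no overlap, and the 3 genes most correlated with each member. From these a selection is printed, and Anxa11 has no probe set of its own here. Ccl2, S100a5, S100a8 and S100a9 were named after their values were seen. In simulated data of 13067 genes, 100 were shifted by 1 and 100 by 2 on the log2 scale. For control day8 against control day0, 52% and 78% of these were recovered. The shares were 48% and 73% for BPA day8 and 52% and 79% for NP day8, each against control day8. In the data 48.7%, 22.2% and 14.2% of genes were called in these comparisons, so the adjustment was less strict there and recovery can differ. The number of arrays limits the precision. A planned comparison of the proteins was not run, since no protein sequences were used here. The closing section gives the alternatives tried.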

Additional observations from a re-analysis of the deposited data

How the results depend on the processing

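Each comparison was recomputed under up to 28 alternatives: pseudocounts, no filter or a stricter one, quantile normalization, median centring, the mean of probe sets, every probe set, variance options, a fold threshold, the compared groups alone, each array left out, and, chosen after seeing the data, a floor at background and the second probe sets. The counts against control day0 are descriptions of the values the genes were selected on. For BPA day8 against control day0 the count of members called was 5, and 3 when changes beyond 1.5-fold were tested. For BPA day8 against control day8 it was 0, and ran from 0 to 1 with an array left out. Scaling moved the median difference of all genes between control day8 and control day0 from 0.12 to 0.01, and the count of members past the threshold there from 3 to 4. With the mean of probe sets, Anxa2 reversed to -0.34 (control day8 against control day0) and Ahnak to 0.46 (NP day8 against control day0); the cause was not tested. The deviations of same-numbered arrays from their group means had a highest correlation of 0.08 over all genes. That does not decide whether the numbers pair the arrays. With a replicate block, 3, 0, 0, 0, 5 and 3 members were called in the 6 comparisons, S100a16 with NP against control day0 being lost. Signal near background limits S100a4 at day 8.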
